A study of Mus musculus with 10 samples.

Results

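Growth hormone (GH) and insulin-like growth factor 1 (IGF1) form an endocrine axis that was followed in the liver by 10 genes: Gh, Ghr, Stat5b, Socs2, Cish, Igf1, Igfals, Igfbp1, Igfbp2 and Igfbp3. The genes were chosen by their place in the axis with the AdVEGF against AdCMV contrast of these same libraries already known, so their differences between the groups are given as a description and not as a test. They are 10 of the 24016 transcripts in the deposited table, with 1 transcript each. All 10 passed a mean of 0.5 RPKM in at least 1 group, Gh through the AdVEGF group alone.

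Livers of 10 male C57/Bl6 mice aged 8 to 12 weeks were sequenced on day 6 after a tail vein injection of adenovirus. The AdVEGF group of 5 mice received a virus that carries VEGF-A165, a vascular growth factor, behind the CMV promoter, and the AdCMV group of 5 mice received an empty virus with that promoter and no transgene. The CMV promoter is not restricted to 1 cell type, both groups carried adenovirus, and mice without virus were not analysed here. RNA was depleted of ribosomal RNA and each library is 1 mouse.

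As background, GH is made in the pituitary and binds its receptor on hepatocytes, where JAK2 phosphorylates STAT5B. STAT5B then enters the nucleus and drives Igf1, Igfals and the feedback inhibitors Socs2 and Cish. Liver is the main source of circulating IGF1, most of which travels bound to IGFBP3 and the acid labile subunit, the product of Igfals. IGFBP1 and IGFBP2 bind IGFs outside that complex, and insulin is known to repress Igfbp1. The pulsed or continuous pattern of GH is also known to set the male or female pattern of liver gene expression.

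Promoters of the axis are shown because STAT5 and insulin are known to act on some of these genes through short DNA motifs, near the start or far from it. The RefSeq table (GRCm38.p6) held 13 promoters for 8 of the 10 genes, each from 250 bases before to 50 bases after a start, and none for Gh and Socs2. Capitals mark matches to TTCNNNGAA, a STAT5 type motif, or to CAAAACA, an insulin response type motif, on either strand. The motifs share no letters in any match. The sequences run 5′ to 3′ on the strand of the gene.
Cish (chr9:107296409-107296708, plus strand): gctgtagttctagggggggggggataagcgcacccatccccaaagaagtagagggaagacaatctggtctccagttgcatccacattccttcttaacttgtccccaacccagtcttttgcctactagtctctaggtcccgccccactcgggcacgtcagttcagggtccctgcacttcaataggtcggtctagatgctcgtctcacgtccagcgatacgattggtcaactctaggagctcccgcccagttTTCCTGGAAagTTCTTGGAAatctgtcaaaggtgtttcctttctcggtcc
Igfals, start at lower coordinates (chr17:24877594-24877893, plus strand): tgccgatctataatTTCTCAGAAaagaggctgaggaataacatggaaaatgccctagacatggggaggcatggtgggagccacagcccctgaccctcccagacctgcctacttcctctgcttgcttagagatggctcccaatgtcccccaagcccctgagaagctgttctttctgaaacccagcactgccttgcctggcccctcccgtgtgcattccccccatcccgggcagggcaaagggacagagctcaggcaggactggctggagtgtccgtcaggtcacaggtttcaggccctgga
Igfals, next start (chr17:24877981-24878280, plus strand): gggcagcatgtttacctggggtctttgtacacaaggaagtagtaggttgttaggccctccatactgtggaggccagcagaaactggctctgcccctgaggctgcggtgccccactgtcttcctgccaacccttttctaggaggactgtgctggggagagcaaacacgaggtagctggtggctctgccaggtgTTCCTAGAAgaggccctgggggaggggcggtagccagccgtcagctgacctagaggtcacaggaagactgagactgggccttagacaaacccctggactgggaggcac
Igfbp1 (chr11:7197537-7197836, plus strand): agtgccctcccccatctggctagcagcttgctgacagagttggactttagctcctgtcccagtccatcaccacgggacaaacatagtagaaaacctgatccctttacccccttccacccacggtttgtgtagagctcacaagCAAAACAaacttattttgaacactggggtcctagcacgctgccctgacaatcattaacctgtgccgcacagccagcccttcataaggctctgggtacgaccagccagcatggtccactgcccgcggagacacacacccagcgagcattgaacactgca
Igf1 (chr10:87860861-87861160, plus strand): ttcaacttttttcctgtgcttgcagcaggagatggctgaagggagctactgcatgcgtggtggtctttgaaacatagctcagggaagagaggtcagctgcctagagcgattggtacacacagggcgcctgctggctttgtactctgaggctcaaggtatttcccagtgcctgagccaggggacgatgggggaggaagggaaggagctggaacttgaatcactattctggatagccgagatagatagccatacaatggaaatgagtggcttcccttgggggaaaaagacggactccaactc
Igfbp3 (chr11:7213874-7214173, minus strand): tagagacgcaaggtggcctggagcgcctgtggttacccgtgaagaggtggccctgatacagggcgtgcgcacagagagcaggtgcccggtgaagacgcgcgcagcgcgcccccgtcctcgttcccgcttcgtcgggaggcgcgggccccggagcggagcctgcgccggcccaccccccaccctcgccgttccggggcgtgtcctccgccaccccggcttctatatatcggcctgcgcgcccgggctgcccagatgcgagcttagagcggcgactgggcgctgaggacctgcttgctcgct

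The STAT5 type motif was found in 3 of the 13 promoters (23.1%) and in 2726 of all 32851 promoters of the table (8.3%). Cish held 2 copies next to each other, beginning at the start base itself. In Igfals the motif began 236 and 58 bases before the respective starts. Another window of Igfals (chr17:24878497-24878796) held neither motif. The insulin response type motif was found in 1 of the 13 (7.69%), beginning 108 bases before the start of Igfbp1, against 2064 of 32851 (6.28%). Igf1 and Igfbp3 are shown for contrast, since their windows hold neither motif. The 2 windows of Igfbp2 hold neither as well, nor do those of Ghr and Stat5b. This says nothing about sites elsewhere. The matches are a description of letters and no binding was measured.

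Values are RPKM as deposited, which are reads set against the length of the transcript and the mapped tags of the library. Mapped tags ranged from 5758960 to 13493989 in the AdCMV group and from 5596565 to 8133952 in the AdVEGF group. The limit of detection is given as 3 reads in a library, which covers counting error only. Major urinary protein (Mup) transcripts took a large part of the reads summed over all transcripts. Their share was 36.6% ± 12.2 in the AdCMV group and 16.3% ± 7.92 in the AdVEGF group (SD, n = 5 each). That sum exceeded the mapped tags in every library, such as 10744079 against 9429227 in AdCMV replicate 4. These are therefore not shares of mapped tags. More Mup reads leave fewer of the mapped tags to other transcripts. AdCMV replicate 3 stood apart with 18.0% Mup reads, the lowest of its group. Over the 13933 tested genes together, the log2 fold change had a median of 0.38, so each fold change is also given after median-ratio scaling between libraries, which brings that median to -0.01.

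The growth hormone transcript itself was seen in AdVEGF livers and in no AdCMV liver. Gh had 0 RPKM in all 5 AdCMV mice, and 0.596, 3.76, 2.99, 0.96 and 1.16 RPKM in AdVEGF replicates 1 to 5. These values rest on 3, 25, 15, 7 and 7 reads, so replicate 1 is at the limit of detection of 3 reads and the spread among the others is wide. The limit in the AdCMV libraries was 0.248 to 0.581 RPKM, with a mean of 0.414. Against that mean limit per library, the AdVEGF mean of 1.89 ± 1.39 RPKM (SD, n = 5) was at least 4.57-fold higher. The groups did not overlap, but the level was low, with 19.8% of tested transcripts below Gh in the AdVEGF group.

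Most other pituitary transcripts were at 0 or below the filter. Of the 17 pituitary and GH release genes listed, 8 were at 0 in every library, namely Prl, Tshb, Lhb, Fshb, Pou1f1, Sst, Ghsr and Prl3d1, and 0 of the 2 that could be tested were called by limma, beside 2 at an unadjusted p under 0.05 and 1 called higher by voom. Pou1f1 is the pituitary factor that switches on Gh, and Ghrhr, the receptor for GH-releasing hormone, was at 0 in 9 of the 10 libraries, with 0.085 RPKM in AdVEGF replicate 2. The summed level of the list was 0.882, 0.287, 2.1, 0.876 and 2.08 RPKM in AdCMV replicates 1 to 5 and 2.41, 3.59, 2.65, 0.995 and 4.61 RPKM in AdVEGF replicates 1 to 5. Its most abundant gene, the placental-type gene Prl2c2, had 0.447 ± 0.312 and 1.12 ± 0.618 RPKM (SD, n = 5 each), not called, and is near-identical to Prl2c3, so its reads are uncertain.

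The transcripts on either side of Gh differed from each other. Gh lies at chr11:106161575-106163210 on the minus strand in the coordinates of the deposited table (mm9), with Tcam1 12117 bases away at lower coordinates and Cd79b 9444 bases away at higher coordinates, and no listed transcript overlaps it. Tcam1 had at most 0.085 RPKM in any mouse. Cd79b, a signalling chain of the B cell receptor, had 0.232, 0.934, 0.427, 0.535 and 0.438 RPKM in the AdCMV mice and 5.54, 3.28, 2.7, 3.0 and 1.25 RPKM in the AdVEGF mice, and rose with a log2 fold change of 2.36 (SE 0.37, limma adjusted p = 0.000185), in 5 of 5 mice above every AdCMV mouse. The order of the mice differed, since AdVEGF replicate 1 was highest for Cd79b and lowest for Gh. The mouse transcript Vegfa had 29.7, 33.1, 28.3, 39.4 and 28.6 RPKM in AdVEGF replicates 1 to 5 and 13.8 to 23.2 RPKM in the AdCMV group. Its log2 fold change was 0.82 (SE 0.19), or 0.42 (SE 0.12) after median-ratio scaling, not called on either scale. How far these values count RNA of the VEGF-A165 carried by the virus was not tested. Vector sequence was not used here, and whether the Gh reads came from vector or from mouse RNA was not tested.

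**Figure D1:**
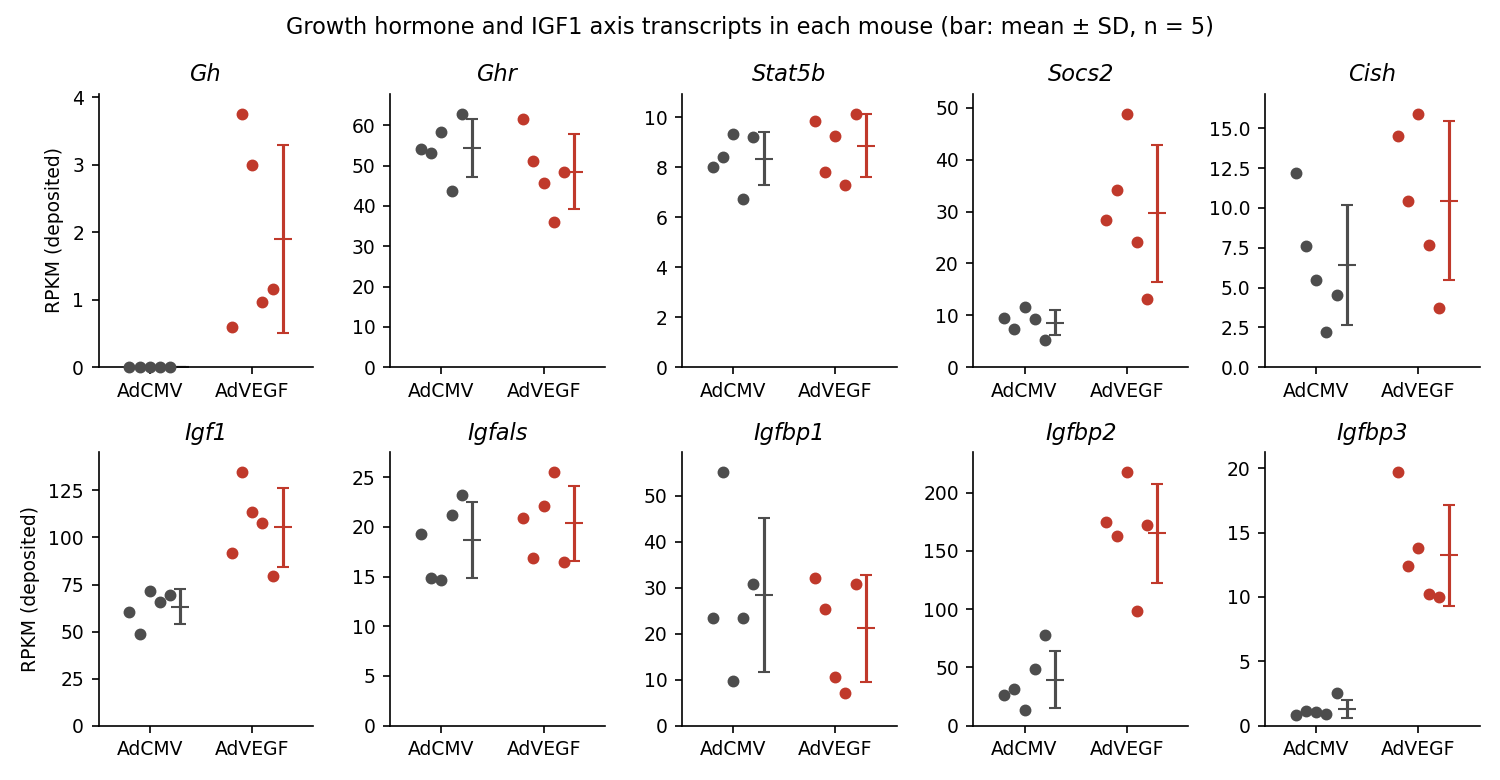
RPKM of the 10 genes in each mouse on linear axes that start at 0, with the AdCMV mice in grey, the AdVEGF mice in red and bars for the mean and SD of 5 mice. Gh is at 0 in every AdCMV mouse, Socs2, Igf1, Igfbp2 and Igfbp3 do not overlap between the groups on the deposited scale (Socs2 and Igf1 overlap after median-ratio scaling), and the other 5 genes overlap.

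Counted over the whole axis, 4 of the 10 genes were called higher (Gh, Socs2, Igfbp2 and Igfbp3) and 0 lower, where a call needs both a log2 fold change beyond 1 in size and an adjusted p below 0.05. Among all 13933 genes tested, 1808 (13%) were called higher and 214 (1.54%) lower. These shares also stand beside the counts of each gene list below. After median-ratio scaling the 4 genes were called again and no other member was, beside 1055 (7.63%) higher and 444 (3.21%) lower among 13827 genes tested. Every AdVEGF value lay above every AdCMV value for 5 of the 10 genes, the 4 called ones and Igf1, beside 14.3% of all genes tested, and the reverse held for 0 of 10, beside 1.29%. Since the genes were chosen with this contrast known, nothing is read from these counts.

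The ranges of the receptor and of its transcription factor overlapped between the groups. Ghr had 54.0, 53.1, 58.3, 43.6 and 62.8 RPKM in AdCMV replicates 1 to 5 and 61.5, 51.1, 45.7, 35.9 and 48.4 RPKM in AdVEGF replicates 1 to 5. AdVEGF replicate 4 was below every AdCMV mouse and none was above. The log2 fold change of Ghr was -0.17 (SE 0.19) on the deposited scale and -0.58 (SE 0.17) after median-ratio scaling, not called on either.

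Stat5b had 7.99, 8.42, 9.34, 6.73 and 9.22 RPKM in the AdCMV mice and 9.83, 7.79, 9.25, 7.31 and 10.1 RPKM in the AdVEGF mice. These are the tightest values of the axis, with a coefficient of variation of 12.7% and 14.1% in the 2 groups. The log2 fold change was 0.08 (SE 0.19), and it turned to -0.31 (SE 0.15) after median-ratio scaling, so no direction can be given for Stat5b.

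Of the feedback inhibitors that STAT5B induces, Socs2 was called and Cish was not. Socs2, whose product binds the GH receptor and limits its signal, had 9.54, 7.34, 11.5, 9.38 and 5.2 RPKM in the AdCMV mice and 28.3, 34.1, 48.9, 24.1 and 13.1 RPKM in the AdVEGF mice. Every AdVEGF mouse exceeded every AdCMV mouse, replicate 5 by the least, and after median-ratio scaling the lowest AdVEGF value, 13.1, fell under the highest AdCMV value, 14.2. The mean went from 8.6 ± 2.41 to 29.7 ± 13.2 RPKM (SD, n = 5 each), a log2 fold change of 1.70 (SE 0.30), or 1.30 (SE 0.30) after median-ratio scaling, called higher on both.

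Cish, the close relative of Socs2 with the paired STAT5 type motifs shown above, had 12.2, 7.6, 5.47, 2.21 and 4.51 RPKM in the AdCMV mice and 14.5, 10.4, 15.9, 7.7 and 3.72 RPKM in the AdVEGF mice. The groups overlapped widely, with 2 AdVEGF mice above every AdCMV mouse. Its log2 fold change of 0.74 (SE 0.41), or 0.35 (SE 0.43) after median-ratio scaling, was within the spread between mice, with a coefficient of variation of 58.9% in the AdCMV group and 47.7% in the AdVEGF group. Cish rested on 45 to 221 reads a library.

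Igf1 and Igfals, secreted products of the axis, were not called. Igf1 had 60.7, 48.5, 71.7, 65.6 and 69.4 RPKM in the AdCMV mice and 91.5, 135, 114, 108 and 79.7 RPKM in the AdVEGF mice. All AdVEGF values lay above all AdCMV values on this scale, while after median-ratio scaling the AdVEGF values of 78.8 to 115 overlapped the AdCMV values of 58.7 to 99.4. The log2 fold change was 0.73 (SE 0.20), of which 0.34 remained above the median of all genes, and 0.33 (SE 0.17) after median-ratio scaling, under the threshold of 1 for a call. Igf1 rested on at least 2792 reads in each library.

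Igfals had 19.3, 14.8, 14.6, 21.2 and 23.2 RPKM in the AdCMV mice and 20.9, 16.9, 22.1, 25.5 and 16.4 RPKM in the AdVEGF mice. Only AdVEGF replicate 4 was above every AdCMV mouse. Its log2 fold change of 0.13 (SE 0.20) turned to -0.27 (SE 0.22) after median-ratio scaling, so Igfals has no direction that both scales share.

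**Figure D2:**
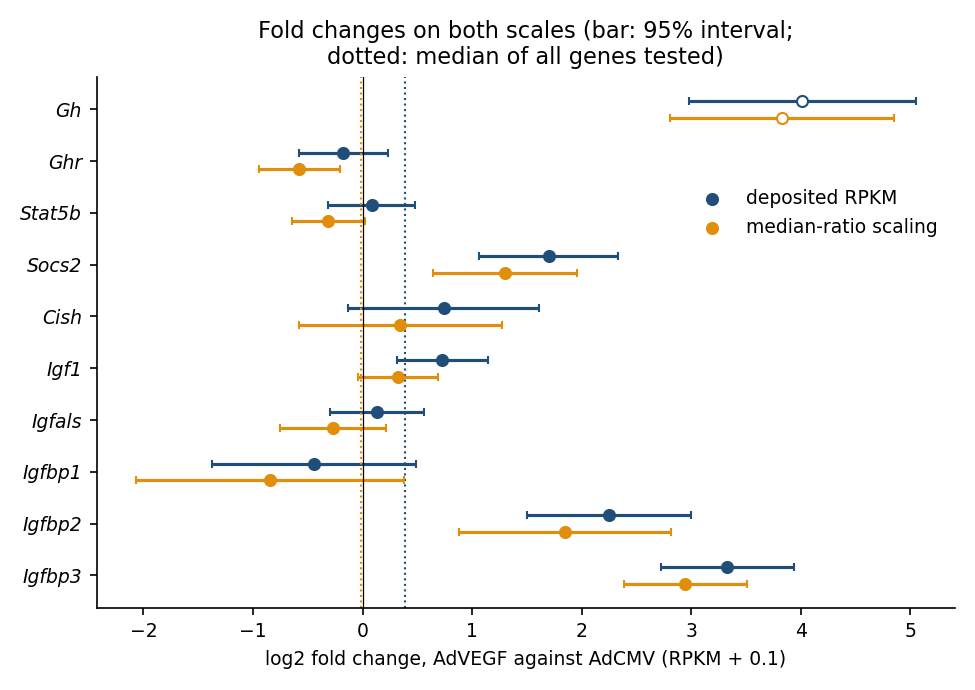
Log2 fold changes of the 10 genes, AdVEGF against AdCMV, on deposited RPKM (blue) and after median-ratio scaling (orange), with bars for the 95% interval and dotted lines at the median of all genes tested, 0.38 and -0.01. Gh, Socs2, Igfbp2 and Igfbp3 lie to the right on both scales, Stat5b and Igfals change sign between the scales, and the open circles of Gh depend on the 0.1 added before the logarithm since its AdCMV values are 0.

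The 3 binding proteins among the members differed from each other. Igfbp1 had 23.4, 55.1, 9.64, 23.3 and 30.9 RPKM in the AdCMV mice and 32.0, 25.4, 10.5, 7.15 and 30.8 RPKM in the AdVEGF mice. The groups overlapped from 9.64 to 32.0 RPKM, with a coefficient of variation of 58.8% and 54.8%. The log2 fold change was -0.45 (SE 0.44), or -0.85 (SE 0.56) after median-ratio scaling, not called.

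Igfbp2 had 25.9, 31.4, 13.7, 48.6 and 77.4 RPKM in the AdCMV mice and 174, 162, 217, 98.5 and 172 RPKM in the AdVEGF mice. The lowest AdVEGF value, in replicate 4, was above the highest AdCMV value, in replicate 5, on the deposited scale and after median-ratio scaling, where they were 82.7 and 78.1. The mean went from 39.4 ± 24.7 to 165 ± 42.7 RPKM (SD, n = 5 each), a log2 fold change of 2.25 (SE 0.36), or 1.85 (SE 0.45) after median-ratio scaling. Igfbp2 thereby passed from the third most abundant of the 10 transcripts to the first.

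Igfbp3, the main carrier of IGF1 in blood, had 0.851, 1.13, 1.04, 0.872 and 2.57 RPKM in the AdCMV mice and 19.7, 12.4, 13.8, 10.2 and 10.0 RPKM in the AdVEGF mice. AdCMV replicate 5 was the highest of its group by a wide margin and still far below the lowest AdVEGF value. The AdCMV values rested on 15 to 37 reads and the AdVEGF values on 164 to 269. The means, 1.29 ± 0.723 and 13.2 ± 3.94 RPKM (SD, n = 5 each), stood in a ratio of 10.2, and the log2 fold change was 3.33 (SE 0.29), or 2.95 (SE 0.26) after median-ratio scaling.

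Igfbp1 and Igfbp3 are next to each other in the genome, and of these neighbours Igfbp3 was called and Igfbp1 was not. In the coordinates of the deposited table (mm9) Igfbp1 lies at chr11:7097790-7102549 on the plus strand and Igfbp3 at chr11:7106096-7113926 on the minus strand, tail to tail with 3546 bases between them. Igfbp2 has Igfbp5 as its neighbour, 5593 bases away on the minus strand, which had 0.362 ± 0.103 and 0.469 ± 0.0913 RPKM (SD, n = 5 each). No listed transcript overlaps any of the 10 genes.

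Taken as a family of 7, the IGF binding protein transcripts summed to 316 ± 50.6 RPKM in the AdCMV group and 682 ± 71.0 RPKM in the AdVEGF group (SD, n = 5 each). The sum was 288, 342, 264, 296 and 391 RPKM in AdCMV replicates 1 to 5 and 679, 645, 702, 787 and 596 RPKM in AdVEGF replicates 1 to 5, with no overlap. Shares within a mouse do not depend on the scaling between libraries. Igfbp4 was the largest share in every mouse, with 54.5% to 68.2% in the AdCMV group and 37.5% to 56.7% in the AdVEGF group. Igfbp2 held 5.21% to 19.8% and 12.5% to 31.0%, and Igfbp1 held 3.66% to 16.1% and 0.908% to 5.17%, so the ranges of these 3 overlapped. The share of Igfbp3 did not overlap, at 0.295% to 0.657% against 1.3% to 2.9%.

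**Figure D3:**
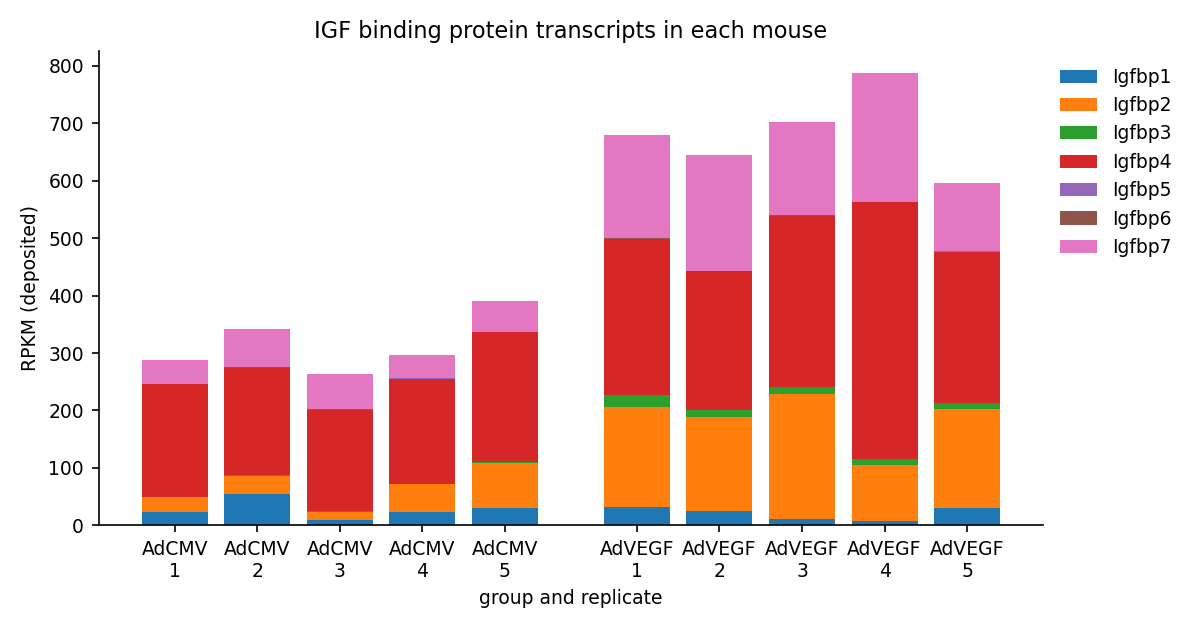
Stacked RPKM of the 7 IGF binding protein transcripts in each mouse, by group and replicate, on a linear axis from 0. The AdVEGF mice reach 596 to 787 RPKM against 264 to 391 RPKM in the AdCMV mice, with larger bands of Igfbp2 and Igfbp7 and a visible band of Igfbp3.

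Ratios within a mouse do not change with any scaling between libraries. Socs2 amounted to 16.2% ± 5.28 of Ghr in the AdCMV group and 62.8% ± 29.8 in the AdVEGF group (SD, n = 5 each), with ranges of 8.28% to 21.5% and 27.0% to 107%. Igfbp3 amounted to 6.86% ± 2.82 and 66.2% ± 19.8 of Igfals, partners of 1 complex in blood, and the ranges of 4.11% to 11.1% and 40.0% to 94.3% did not overlap either. The ratio of Igfbp2 to Igfbp1 was 1.54 ± 0.77 in the AdCMV group and 10.4 ± 6.73 in the AdVEGF group, with ranges of 0.571 to 2.51 and 5.45 to 20.7. These are ratios of RPKM, which are corrected for transcript length. The ratio of Socs2 to Cish was 1.85 ± 1.43 in the AdCMV group and 2.99 ± 0.606 in the AdVEGF group, and its AdVEGF range of 1.95 to 3.51 lay inside the AdCMV range of 0.784 to 4.23, so these 2 genes were not shown to have moved apart. The ratio of Igf1 to Igfals had overlapping ranges, 2.99 to 4.9 and 4.22 to 7.98, and so did that of Igf1 to Ghr, 0.914 to 1.5 and 1.49 to 3.0. Set against Alb, the albumin transcript that fills much of a hepatocyte library, Igf1 was at 0.857% ± 0.233 and 0.644% ± 0.172 of the RPKM of Alb, within the spread between mice and in the opposite direction to its RPKM. Alb itself was called higher on deposited RPKM, so the lower ratio does not show a fall of Igf1.

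By mean RPKM, the order in the AdCMV group was Igf1, Ghr, Igfbp2, Igfbp1, Igfals, Socs2, Stat5b, Cish, Igfbp3 and Gh. Neighbours in this order overlapped in their ranges, except that the range of Igfals lay above that of Socs2 and Gh was at 0. Within every AdCMV mouse, Cish was also above Igfbp3, although their ranges overlapped. In the AdVEGF group the order was Igfbp2, Igf1, Ghr, Socs2, Igfbp1, Igfals, Igfbp3, Cish, Stat5b and Gh. Here, within every mouse, Igf1 was above Ghr, Igfals was above Igfbp3, and Gh was the lowest.

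The other genes of GH receptor signalling, 24 listed and all tested, had 3 called higher and 2 lower, with a median log2 fold change of 0.22 beside 0.38 for all genes. The kinase that the receptor uses was not among them, since Jak2 had 5.31 ± 2.09 and 5.41 ± 1.04 RPKM, and Stat5a, the twin of Stat5b, had 4.04 ± 1.01 and 3.63 ± 0.836 RPKM (SD, n = 5 each). Grb10, an adaptor that restrains insulin and IGF1 receptors, had 0.757, 0.718, 0.909, 0.335 and 0.659 RPKM in the AdCMV mice and 14.5, 14.3, 15.4, 14.7 and 17.2 RPKM in the AdVEGF mice. It rose by a log2 fold change of 4.35 (SE 0.24, limma adjusted p = 2.41e-09), or 3.99 after median-ratio scaling, in 5 of 5 mice and with a smaller standard error than the 4 called members of the axis.

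Of the inhibitors of cytokine signalling on this list, 1 was called. Socs1 fell in all 5 AdVEGF mice, from 8.35 ± 3.06 to 1.7 ± 0.89 RPKM (log2 fold change -2.31, SE 0.35, adjusted p = 0.000124) with no overlap. Socs1 is also known as a target of interferon. Socs3 had 4.11 ± 1.99 and 2.64 ± 1.0 RPKM and was not called. Of the adaptors, Sh2b2 went from 0.562 ± 0.249 to 1.58 ± 0.435 RPKM (1.40, SE 0.34, adjusted p = 0.00627) and Sh2b3 from 1.68 ± 0.764 to 4.18 ± 1.3 RPKM (1.33, SE 0.31, adjusted p = 0.00487). The Sh2b3 call was lost with median-ratio scaling (0.95), upper quartile scaling (0.99), totals without Mup (0.94) and a pseudocount of 1 (0.965). The Sh2b2 call was lost with a pseudocount of 1 (0.72). Without AdCMV replicate 3 or without AdCMV replicate 5, 5 genes were called higher in place of 3, with Sirpa (1.12 and 1.11) and Socs5 (1.03 and 1.00) added.

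T and NK cell markers moved in the same direction as Socs1. Of 8 tested among the 10 listed, 6 were called lower and 0 higher, and the summed level was 20.6, 19.3, 34.8, 9.2 and 30.6 RPKM in the AdCMV mice and 10.6, 8.86, 13.9, 5.88 and 6.3 RPKM in the AdVEGF mice. The most abundant was Nkg7 with 6.84 ± 2.87 and 2.65 ± 1.2 RPKM, and no marker was at 0 in every library. Their part in the result was not tested. In bulk liver RNA, fewer cells of a type and less RNA per cell cannot be told apart.

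The other genes of the IGF system, 16 listed, had 9 above the filter, of which 3 were called higher and 0 lower on both scales, with a median log2 fold change of 0.62 beside 0.38 for all genes. At an unadjusted p under 0.05 in limma, 5 were higher and 0 lower. Igf1r, the receptor for IGF1, had 0.162, 0.372, 0.754, 0.213 and 0.552 RPKM in the AdCMV mice and 1.71, 2.3, 1.79, 1.47 and 1.65 RPKM in the AdVEGF mice, with a log2 fold change of 2.01 (SE 0.35, adjusted p = 0.000443) in 5 of 5 mice. Igf1r and Stc1 passed the filter through the AdVEGF group alone, and both were also called without the filter. Adult hepatocytes are known to carry little of the IGF1 receptor. With a pseudocount of 1 the value was 0.99 and the call was lost. Stc1, which inhibits the protease that releases IGFs from their binding proteins, went from 0.167 ± 0.121 to 4.04 ± 1.24 RPKM (4.04, SE 0.35, adjusted p = 3.86e-07), and the protease itself, Pappa, had 0.697 ± 0.0983 and 0.856 ± 0.238 RPKM and was not called.

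Igfbp7, a secreted binding protein of low affinity for IGFs that endothelium makes, went from 41.0, 66.7, 61.9, 40.1 and 55.0 RPKM to 178, 202, 162, 224 and 119 RPKM (1.74, SE 0.22, adjusted p = 1.78e-05). Igfbp4, the most abundant gene of the list, had 193 ± 19.2 and 304 ± 81.8 RPKM and a log2 fold change of 0.62 (SE 0.20), under the threshold. Insr and Igf2r had 12.3 ± 3.22 and 17.2 ± 1.52 RPKM and 7.12 ± 2.54 and 7.3 ± 0.493 RPKM, neither called. Igf2, a fetal growth factor silenced in adult mouse liver, was below the filter with 0.0682 ± 0.0326 and 0.411 ± 0.227 RPKM (SD, n = 5 each), and without the filter it was called higher (1.46, adjusted p = 0.0174).

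Endothelial and stellate cell markers rose beside Igfbp3, Igfbp7, Igf1r and Stc1. All 10 pan-endothelial markers were called higher on both scales, and their sum was 37.9, 39.7, 54.1, 25.5 and 51.8 RPKM in the AdCMV mice and 255, 245, 270, 262 and 247 RPKM in the AdVEGF mice. The most abundant, Eng, had 14.9 ± 3.6 and 41.0 ± 3.69 RPKM. Of the 12 stellate and fibroblast markers, 10 were called higher and 0 lower, with sums of 83.0, 129, 123, 82.5 and 139 RPKM and of 435, 408, 322, 406 and 216 RPKM. The most abundant, Dcn, had 71.1 ± 14.5 and 130 ± 37.0 RPKM. No marker of either list was at 0 in every library. IGFBP3 is known as a product of the nonparenchymal cells of liver, and the part of these cells in the result was not tested.

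Markers of hepatocytes, the cells that make Igf1, Igfals, Igfbp1 and Igfbp2, were higher in sum, while their median change lay near that of all genes. The median log2 fold change was 0.39 beside 0.38 for all genes, and -0.01 after median-ratio scaling. Their summed level was 17547, 19428, 16294, 15241 and 22296 RPKM in the AdCMV mice and 32527, 32203, 36992, 37397 and 35231 RPKM in the AdVEGF mice. Of 11 tested, 3 were called higher (Alb, Apoa1 and Ahsg) and 0 lower, while after median-ratio scaling Ahsg was called higher and Cyp3a11 and Cyp2e1 lower. The most abundant, Alb, had 7716 ± 2056 and 16666 ± 1841 RPKM, and no marker was at 0. Kupffer and macrophage markers had 3 of 9 called higher and 0 lower, with Cd5l, not called, as the most abundant (64.2 ± 22.2 and 107 ± 19.8 RPKM) and sums of 133, 191, 188, 119 and 248 RPKM and of 364, 308, 330, 256 and 238 RPKM. Their part in the values of the axis was not tested.

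Of the remaining lists, the 5 cholangiocyte markers tested had 1 called higher, Spp1, which is also the most abundant (35.2 ± 11.3 and 531 ± 174 RPKM) and is not confined to cholangiocytes, with sums of 25.6 to 55.0 and 284 to 728 RPKM. The 5 B cell markers tested had 3 called higher, and 1 after median-ratio scaling (Cd79b), with sums of 1.69 to 2.35 and 4.22 to 9.85 RPKM and Cd79b, the neighbour of Gh, as the most abundant. The 6 neutrophil markers tested had 2 called higher, with S100a8, not called, as the most abundant (21.2 ± 17.6 and 33.3 ± 42.0 RPKM) and overlapping sums of 28.1 to 122 and 31.7 to 218 RPKM. The 5 erythroid genes tested had 0 called by limma and by voom and 0 at an unadjusted p under 0.05, with Hba-a1 as the most abundant (785 ± 234 and 597 ± 336 RPKM) and overlapping sums of 1243 to 2830 and 837 to 3077 RPKM.

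**Figure D4:**
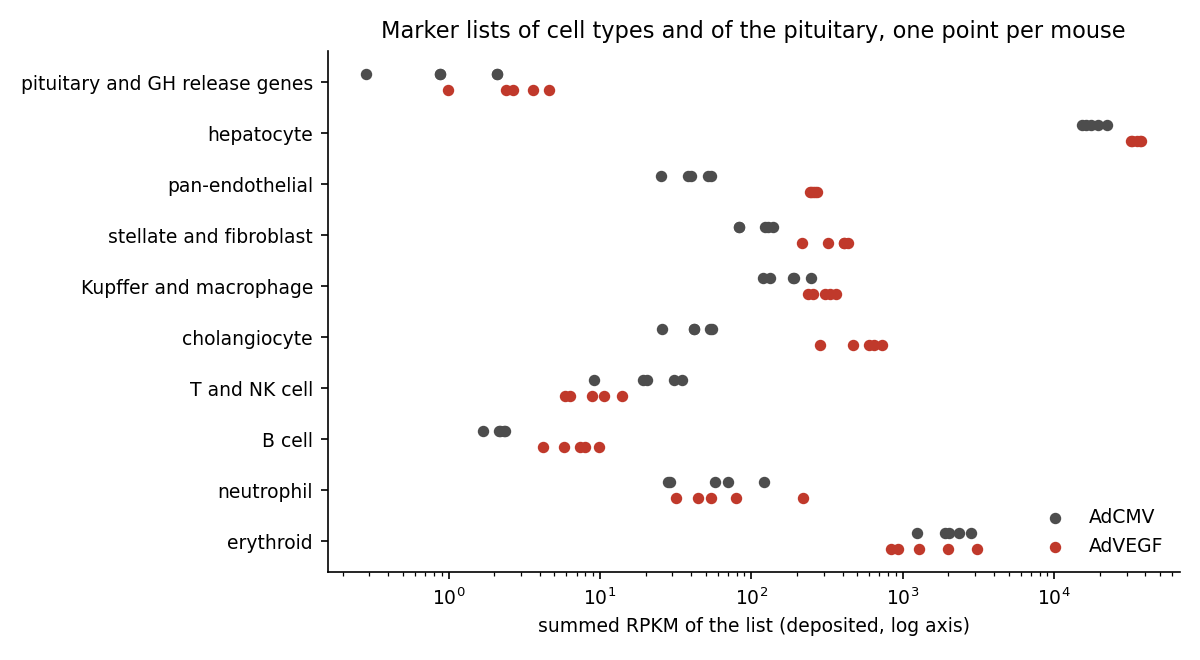
Summed RPKM of each marker list in each mouse on a log axis, with the AdCMV mice in grey and the AdVEGF mice in red. Pan-endothelial, stellate, cholangiocyte, B cell and hepatocyte sums do not overlap between the groups, T and NK cell sums overlap in the range of 9.2 to 13.9, and the pituitary list lies under 5 RPKM in every mouse.

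On deposited RPKM, most genes known to differ between male and female liver through the GH pattern were not called. Of 14 male-biased genes tested, 3 were called lower and 0 higher, beside 1.54% lower and 13% higher among all genes tested. Their median log2 fold change was -0.56 beside 0.38 for all genes. At an unadjusted p under 0.05 in limma, 6 were lower and 0 higher. Cyp4a12a, a fatty acid hydroxylase, had 59.1, 48.6, 68.9, 41.8 and 57.0 RPKM in the AdCMV mice and 22.1, 10.7, 1.86, 2.09 and 20.1 RPKM in the AdVEGF mice. All 5 AdVEGF mice were below every AdCMV mouse, replicates 3 and 4 by the most (log2 fold change -2.90, SE 0.56, adjusted p = 0.00107). Cyp4a12b fell likewise (-2.48, SE 0.51, adjusted p = 0.00191), but the genes are near-identical and their reads cannot be fully separated.

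Elovl3, a fatty acid elongase, had 121, 126, 42.3, 80.4 and 126 RPKM in the AdCMV mice and 70.0, 51.6, 4.87, 1.58 and 47.4 RPKM in the AdVEGF mice. Its log2 fold change of -2.43 (SE 0.79, limma adjusted p = 0.033) was not called after leaving out any 1 of 6 mice. Without AdCMV replicates 1, 2, 4 and 5 it was -2.33, -2.32, -2.48 and -2.32 (adjusted p = 0.0698, 0.0621, 0.0696 and 0.0573). Without AdVEGF replicates 3 and 4 it was -1.99 and -1.60 (adjusted p = 0.09 and 0.0567). The call was also lost with upper quartile scaling (-2.79, adjusted p = 0.0532) and without the filter (adjusted p = 0.0736). Mup20, the most abundant male-biased gene, had 9626 ± 2479 and 5949 ± 2821 RPKM (SD, n = 5 each) and was not called, and its family shares reads. Of the 14 genes, 5 had positive log2 fold changes, at most 0.50, and none of these was called. After median-ratio scaling 5 genes were lower, with Cyp7b1 (-1.14) and Gstp1 (-1.30) added, and Gstp1 was also lower without AdVEGF replicate 1 (-1.02).

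Female-biased genes had 2 of 20 called higher and 4 lower, beside 13% higher and 1.54% lower among all genes tested. Their median log2 fold change was -0.26. Cyp2a4 had 58.3, 92.3, 557, 26.3 and 49.1 RPKM in the AdCMV mice and 10.8, 5.61, 41.8, 1.88 and 6.28 RPKM in the AdVEGF mice (-3.37, SE 0.73, adjusted p = 0.00288). Replicate 3 was the highest of each group, and AdCMV replicate 3 is also the library with the low Mup share. Cyp2a4 shares most of its sequence with Cyp2a5, so its reads are uncertain. Cyp2b9 (-1.98, SE 0.51, adjusted p = 0.00953), Cyp3a44 (-1.21, SE 0.40, adjusted p = 0.0389) and Cyp2c39 (-1.03, SE 0.31, adjusted p = 0.0259) were also lower. The latter 2 were not called without AdCMV replicates 3, 4 or 5 or AdVEGF replicate 4, where Cyp3a44 stood at -0.96, -1.31, -1.10 and -0.76 and Cyp2c39 at -0.92, -1.03, -0.93 and -0.75, and Cyp2b9 was not called with a pseudocount of 1 (-0.65). Without the filter neither Cyp3a44 (adjusted p = 0.075) nor Cyp2c39 (adjusted p = 0.0512) was called, and Cyp2c39 was also not called with a pseudocount of 1 (-0.79) or by voom (-0.98). Calls were gained by Abcd2 (1.01, higher) without AdCMV replicate 3, Cyp17a1 (-1.86) without AdVEGF replicate 4 and Cyp3a41a (-1.30) without AdVEGF replicate 5. Cyp2b9 passed the filter through the AdCMV group alone and was also called without the filter.

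In the other direction Nipal1, a magnesium transporter, had 0.882 ± 0.618 and 5.51 ± 3.49 RPKM (2.45, SE 0.48, adjusted p = 0.00131), and Hamp2, a hepcidin and the most abundant gene of the list, 114 ± 81.8 and 260 ± 101 RPKM (1.35, SE 0.38, adjusted p = 0.0167). Hamp2 was not called after median-ratio scaling (0.94, adjusted p = 0.139). That scaling gave 1 female-biased gene higher and 8 lower of 17 tested, with a median of -1.13. Among all genes tested it gave 7.63% higher and 3.21% lower. Sult2a1, Sult3a1, Hao2 and Cux2, known as female-biased genes with little expression in males, were below the filter. Prlr, which is on this list and on the GH receptor signalling list, had 29.2 ± 14.0 and 35.7 ± 18.8 RPKM and was not called.

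Among 15 insulin-responsive liver genes, 1 was called higher and 0 lower by limma, with a median log2 fold change of 0.15, beside 6 higher and 1 lower at an unadjusted p under 0.05. Fgf21, a hormone of fasting and stress, had 0.733, 1.1, 3.37, 0.901 and 0.922 RPKM in the AdCMV mice and 7.18, 4.57, 9.48, 0.783 and 2.84 RPKM in the AdVEGF mice. Replicate 4 of the AdVEGF group lay inside the AdCMV range, and the log2 fold change of 1.58 (SE 0.53, adjusted p = 0.0379) became 1.21 (adjusted p = 0.126) after median-ratio scaling. It was also not called without AdCMV replicates 1, 2, 4 or 5 (adjusted p = 0.0923, 0.0646, 0.0934 and 0.0639) or AdVEGF replicates 1, 2 or 3 (adjusted p = 0.0884, 0.0737 and 0.109). Pck1, the most abundant gene and the rate-setting enzyme of gluconeogenesis, had 95.1 ± 41.4 and 160 ± 50.0 RPKM, a log2 fold change of 0.79, and was called higher without AdCMV replicate 4 (1.00). Tat was called higher without AdCMV replicate 5 (1.03). G6pc, which insulin represses along with Igfbp1, had 75.4 ± 17.2 and 41.2 ± 30.1 RPKM (-1.47, SE 0.60, adjusted p = 0.081) and was called lower without AdVEGF replicate 1 (-1.84) and without AdVEGF replicate 5 (-1.76). Without AdCMV replicate 3, Irs2 was the 1 gene called lower (-1.02).

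The 12 liver transcription factors that act with STAT5B or with the insulin response had 0 called by limma and 0 by voom in either direction. At an unadjusted p under 0.05, 1 was higher and 1 lower. Cebpb, the most abundant, had 86.4 ± 16.2 and 79.3 ± 23.3 RPKM, and Hnf4a, also on the hepatocyte list, 62.7 ± 21.3 and 53.8 ± 5.6 RPKM.

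**Figure D5:**
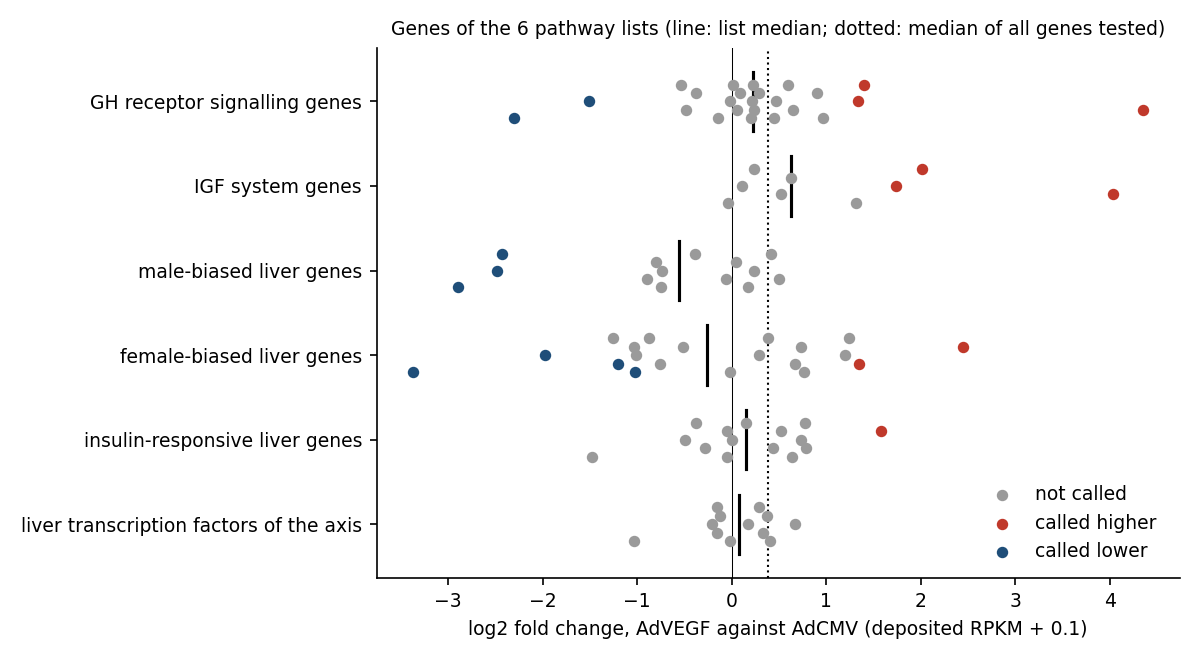
Log2 fold change of each tested gene of the 6 pathway lists on deposited RPKM, coloured by its call, with a black line at the median of each list and a dotted line at the median of all genes tested, 0.38. Both sex-biased lists have their median below 0 and the IGF system above the dotted line, with Grb10 and Stc1 farthest to the right.

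The transcripts whose values were most like those of 3 members across the 10 mice, once the mean of each group was taken out, were found among 7405 transcripts with a mean of at least 5 RPKM. The measure is Pearson's r of log2(RPKM + 0.1), given as a description without a p, and libraries share their Mup content and depth. Igf1 was like Grb14 (r = 0.908) and Cpox (r = 0.869). Igfbp1 was most like Elovl3 (r = 0.864), Mup3 (r = 0.861) and Rnf125 (r = 0.842), and both Igfbp1 and Elovl3 were lowest in AdCMV replicate 3 and AdVEGF replicate 4 of their groups. Gh, which varies only among the 5 AdVEGF mice, was most like Gm2506 (r = 0.89), Ccl27b (r = 0.887) and Gm13306 (r = 0.887), whose values are the same in 9 of the 10 mice and so count as 1.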

How the data were processed

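Liver RNA-Seq of 5 AdVEGF and 5 AdCMV mice was analysed. The submitters' processing notes name TopHat, HOMER and mm9. The authors deposited RPKM values for 24016 RefSeq transcripts, with no scaling between libraries beyond the total of mapped tags. The deposited table also holds the authors' own log fold changes and FDR for each transcript, which were not used. The members and gene lists were chosen with earlier results of these data known.

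Reads were recovered from the steps of the RPKM values (99.9914% to 100% of the values up to 300 reads were whole, within 0.1 of a read, and larger values were not checked). The 5 transcripts without a symbol were left out. The test was limma 3.58.1 in R 4.3.3, two-sided with a trended prior from eBayes, on log2(RPKM + 0.1). Transcripts entered it if either group had a mean above 0.5 RPKM, and p was adjusted across them by Benjamini-Hochberg. A call needed a log2 fold change beyond 1 in size and an adjusted p below 0.05. Such fold changes understate the change of low genes. The read recovery and the limma fit were tested on simulated data, voom was not. Tables and sequences were read with Python 3.11.15 and pandas 2.3.3. The lists held 6 pathways and 10 sets of markers; Slp, Hao3, Tf, Emr1, Ighm, Ly6g and Epb4.2 were not matched in the table.

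Genes were named by a rule: the 10 members, the called genes of each pathway list (the 5 largest where more were called in a direction) with its most abundant gene, the most abundant gene and the markers at 0 of each marker list, the neighbours of Gh, and the 3 transcripts most like Igf1, Igfbp1 and Gh. Some genes under this rule are not reported here. Vegfa, Jak2, Stat5a, Socs3, Socs5, Sirpa, Igf2, Igf2r, Insr, Igfbp5, Pappa, Cyp7b1, Gstp1, Sult2a1, Sult3a1, Hao2, Cux2, Prlr, G6pc, Irs2, Tat, Abcd2, Cyp17a1, Cyp3a41a, Hnf4a and Ghrhr, the single called hepatocyte genes and the ratios within a mouse were chosen after values had been seen. As alternatives, libraries were scaled by median ratio or by upper quartile, and the fit was repeated with library totals without the 21 Mup genes, pseudocounts of 1 and 0.01, no filter, a mean over 1 RPKM, the replicate number as a block, voom run on recovered reads, either unscaled or scaled by median ratio, and each mouse left out.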

Additional observations from a re-analysis of the deposited data

Results flagged for a closer look

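Igfbp3 in AdCMV replicate 5, at 2.57 RPKM (36 reads), stood far above the other 4 AdCMV mice, which had 0.851 to 1.13 RPKM. Its distance to the nearest mouse was 0.839 of the range of the group, over the critical value of 0.71 for 5 samples. It was the 1 such value among 19 sets of 5 mice for the 10 genes, and chance gives about 1 in 20. The same mouse had the highest Igfbp2 value of its group, 77.4 RPKM, and the lowest Socs2 value, 5.2 RPKM.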

How the results depend on the processing

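The 4 members called higher (Gh, Socs2, Igfbp2 and Igfbp3) were called under all 21 alternatives and no member was called lower under any. The alternatives reuse the same values of genes chosen with this contrast known, so this describes the processing and adds no support. For Gh each of them sets the AdVEGF values against an AdCMV group at 0. Their log2 fold changes ranged from 1.40 (pseudocount of 1) to 7.24 (pseudocount of 0.01) for Gh, which follows from adding to values of 0, from 1.29 to 1.96 for Socs2, from 1.84 to 2.55 for Igfbp2 and from 2.64 to 3.60 for Igfbp3. Those of Stat5b and Igfals were positive in 16 of 21 and negative in the 5 that rescale the libraries.

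Across all genes, 1055, 1099, 1034, 954 and 1135 were called higher with median-ratio scaling, upper quartile scaling, totals without Mup, a pseudocount of 1 and voom with median-ratio scaling, and 444, 397, 451 and 477 were lower under these except the pseudocount. Higher genes made up 89.4% of the calls on deposited RPKM, and 70.4%, 73.5% and 69.6% under the 3 scalings. Leaving out a mouse gave 1425 to 2357 higher and 178 to 225 lower. Without AdCMV replicate 3, 2357 were higher.

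Of GH receptor signalling genes, 1 was higher with a pseudocount of 1 and 5 with voom, and 3 to 5 without a mouse. Of IGF system genes, 2 were higher with a pseudocount of 1 and 4 without the filter. Of female-biased genes, 1 was higher under each of the 4 rescalings and 8 (median-ratio), 9 (voom with median-ratio), 2 (pseudocount of 1) and 2 (no filter) were lower, with 2 to 5 without a mouse. Of male-biased genes, 5 were lower with median-ratio scaling, 5 without Mup and 6 with voom and median-ratio scaling. Of insulin-responsive genes, 0 were higher under the 4 rescalings and without the filter, 0 to 1 without a mouse (Fgf21, Pck1 or Tat), and 1 was lower with voom, 0 to 1 without a mouse. Of the transcription factors, 1 was lower under each of the 4 rescalings. The cause of these changes was not tested.

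The mice of the 2 groups share only a number. Same-numbered mice correlated at 0.0357, 0.109, 0.00763, 0.096 and 0.291, and not every mouse correlated best with its own number. With the replicate block 1933 genes were higher and 256 lower, 7 female-biased genes and 1 insulin-responsive gene (G6pc) were lower. With median-ratio scaling and the replicate block, added after the data had been seen, 1065 genes were higher and 480 lower, with 1 female-biased gene higher and 9 lower, 5 male-biased genes lower, 0 insulin-responsive genes higher and 1 transcription factor lower. Depth limits Gh most, with 57 reads in 5 libraries.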

Other observations

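AdVEGF replicates 3 and 4 were the lowest 2 mice of their group for several liver genes at once, a pattern picked out after the values had been seen. They had 15.2 and 3.52 RPKM of G6pc against 55.3 to 72.9 in the other 3 AdVEGF mice, 4.87 and 1.58 RPKM of Elovl3 against 47.4 to 70.0, and 1.86 and 2.09 RPKM of Cyp4a12a against 10.7 to 22.1. The same 2 mice had the lowest shares of Mup reads, 7.84% and 11.2%, and the lowest Igfbp1, 10.5 and 7.15 RPKM. For Socs2 they differed, with 48.9 RPKM as the highest value of the group in replicate 3 and 24.1 RPKM in replicate 4. The cause was not tested.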
